A study of Mus musculus with 17 samples.

Results

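The 9 genes described here encode plasma membrane carriers of amino acids, or a subunit of such carriers: Slc7a1, Slc7a3, Slc7a5, Slc7a11, Slc3a2, Slc38a2, Slc1a4, Slc1a5 and Slc6a9. They were followed in islets of C57BL/6 mice, the endocrine cell clusters of the pancreas, over the first 48 h after isolation. The study prepared 6 batches of islets, each from a pool of 4 mice, and divided each batch into portions that were harvested at 0, 24 or 48 h. All portions were untreated, and cultured ones were kept in F12K medium that contained fetal bovine serum. RNA of each portion was amplified and hybridised to 1 Affymetrix mouse expression array, which gave 6 arrays for each cultured time and 5 for 0 h. Batch 5 has no freshly harvested array in this work. Replicate numbers below are batch numbers. Every later portion was in culture, so time after isolation and time in culture cannot be told apart.

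A probe set, the group of short oligonucleotides that reports 1 transcript on such an array, was taken as a member when the platform annotation gave it 1 of these 9 symbols and no other. That rule found 18 probe sets of 45037, covering 9 of 18193 genes. Of the 9 genes, 3 had 1 probe set and 6 had more; each gene is represented by its probe set with the highest mean, and the others are given where they differ. Levels are log2 signals, comparable between arrays for 1 probe set but not between probe sets. The table's median, 3.52, is used as a mark under which a signal was not separated from background. By this mark 6 genes were above on every array, Slc7a3 and Slc1a5 on some arrays, and Slc7a11 on none. Of the 9, 7 had a mean above the mark, as did 11916 of the 18193 genes.

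Amino acid carriers work in families. The light chains SLC7A5 and SLC7A11 each form a disulfide-linked dimer with the heavy chain SLC3A2, also called CD98: the first dimer exchanges large neutral and branched-chain amino acids, and the second, called system xc-, takes up cystine in exchange for glutamate and so feeds glutathione synthesis. SLC7A1 and SLC7A3 carry cationic amino acids such as arginine and lysine; SLC1A4 and SLC1A5 exchange small neutral amino acids, SLC38A2 takes up neutral amino acids together with sodium, and SLC6A9 takes up glycine. When amino acids run short or protein folding is disturbed, phosphorylation of eIF2alpha favours translation of the transcription factor ATF4, and several of these carriers are among the genes that ATF4 is known to induce. In beta cells, arginine and leucine also act on insulin secretion.

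ATF4 binds, together with C/EBP proteins, a composite site whose core was searched here as the letters TGATGNAA on either strand, in windows of 250 bases before to 50 bases after each RefSeq start site (build GRCm38.p6). Such windows were found for 6 of the 9 genes, of which 2 held the core, Slc7a11 and Slc1a4, against 4.51% of 27025 genes. The window of Slc7a11 held it at 2 places. Of 19 amino acid response genes with a window, 7 held it (36.8%). The stretches of Slc7a11 and Slc1a4 are shown because they are the only matches among the carriers; those of Chac1, Asns and Trib3 were picked from the 7 because they hold the core, to show its variants. They run 5′ to 3′ on the strand of the gene, with the matched core, or its reverse complement, in capitals.
Slc7a11: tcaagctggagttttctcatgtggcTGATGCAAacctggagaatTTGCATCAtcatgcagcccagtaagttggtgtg
Slc1a4: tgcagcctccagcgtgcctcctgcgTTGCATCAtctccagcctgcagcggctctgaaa
Chac1: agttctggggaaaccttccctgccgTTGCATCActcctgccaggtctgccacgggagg
Asns: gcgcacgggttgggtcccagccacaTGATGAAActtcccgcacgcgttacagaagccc
Trib3: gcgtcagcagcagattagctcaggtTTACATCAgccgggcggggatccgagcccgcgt
The stretches lie at chr3:50443628-50443704 (minus strand) for Slc7a11, chr11:20332685-20332742 (minus) for Slc1a4, chr2:119351024-119351081 (plus) for Chac1, chr6:7693200-7693257 (minus) for Asns and chr2:152344014-152344071 (minus) for Trib3.

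In Slc7a11 the matches began at positions -66 and -47 from the start site, on opposite strands; in Slc1a4 the match spanned the start site itself. A second core, TGACNNNGC on either strand, stands for the antioxidant response element bound by NRF2, a regulator known for Slc7a11. It was found in windows of Slc7a1, Slc38a2 and Slc6a9, 3 of 6 genes against 14% of all genes, and not in the window of Slc7a11. The letters describe these windows only, and no binding was measured.

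**Figure D1:**
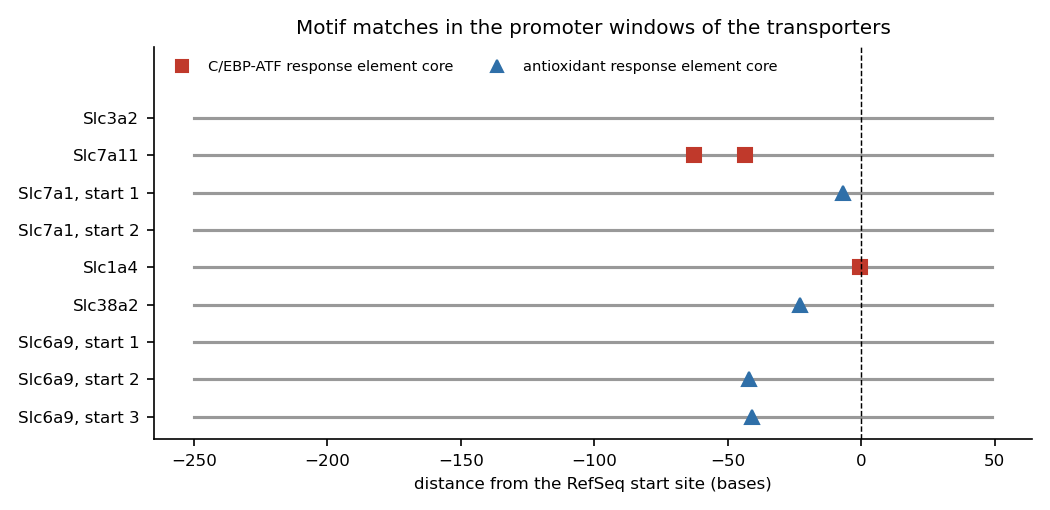
Positions of matches to both cores in the promoter windows of the 6 transporters with a RefSeq window, 1 line per start site, in bases from the start site (dashed line). Squares mark the C/EBP-ATF core and triangles the antioxidant core. Only Slc7a11 and Slc1a4 carry squares, and the pair in Slc7a11 begins at -66 and -47.

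The arrays correlated with each other at 0.976 to 0.995 over all probe sets; 0 h replicate 3 and 24 h replicate 5 were the least like the others of their time (median r = 0.987 and 0.988). Without these 2 arrays 7, 7 and 0 of the 9 carriers passed in the 3 comparisons, the same numbers as with them.

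At 24 h, 7 of the 9 carriers rose against 0 h and 0 fell, while 5.44% of all 18193 genes rose and 6.66% fell. The 7 were Slc7a3, Slc7a5, Slc1a4, Slc7a1, Slc7a11, Slc6a9 and Slc3a2; Slc38a2 and Slc1a5 did not pass. One of the 7, Slc7a11, was under the background mark on every array, and 6 passed at each time when weak probe sets were left out of the fit. At 48 h the same 7 of 9 rose and 0 fell, against 6.45% of all genes that rose and 5.27% that fell. Differences were tested with limma over all probe sets, and a gene passed at a Benjamini-Hochberg adjusted p under 0.05. The median log2 difference of the 9 was 0.53 at 24 h and 0.62 at 48 h, beside -0.01 and -0.02 over all genes. Of the 18 probe sets, 8 rose at 24 h and 10 at 48 h (3.86% and 4.67% of all probe sets rose), and 0 fell (4.72% and 3.8% of all probe sets). Between 24 and 48 h 0 of the 9 passed in limma (0 also at an unadjusted p under 0.05; 0.759% of all genes passed), and their log2 differences lay between -0.35 and 0.24.

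**Figure D2:**
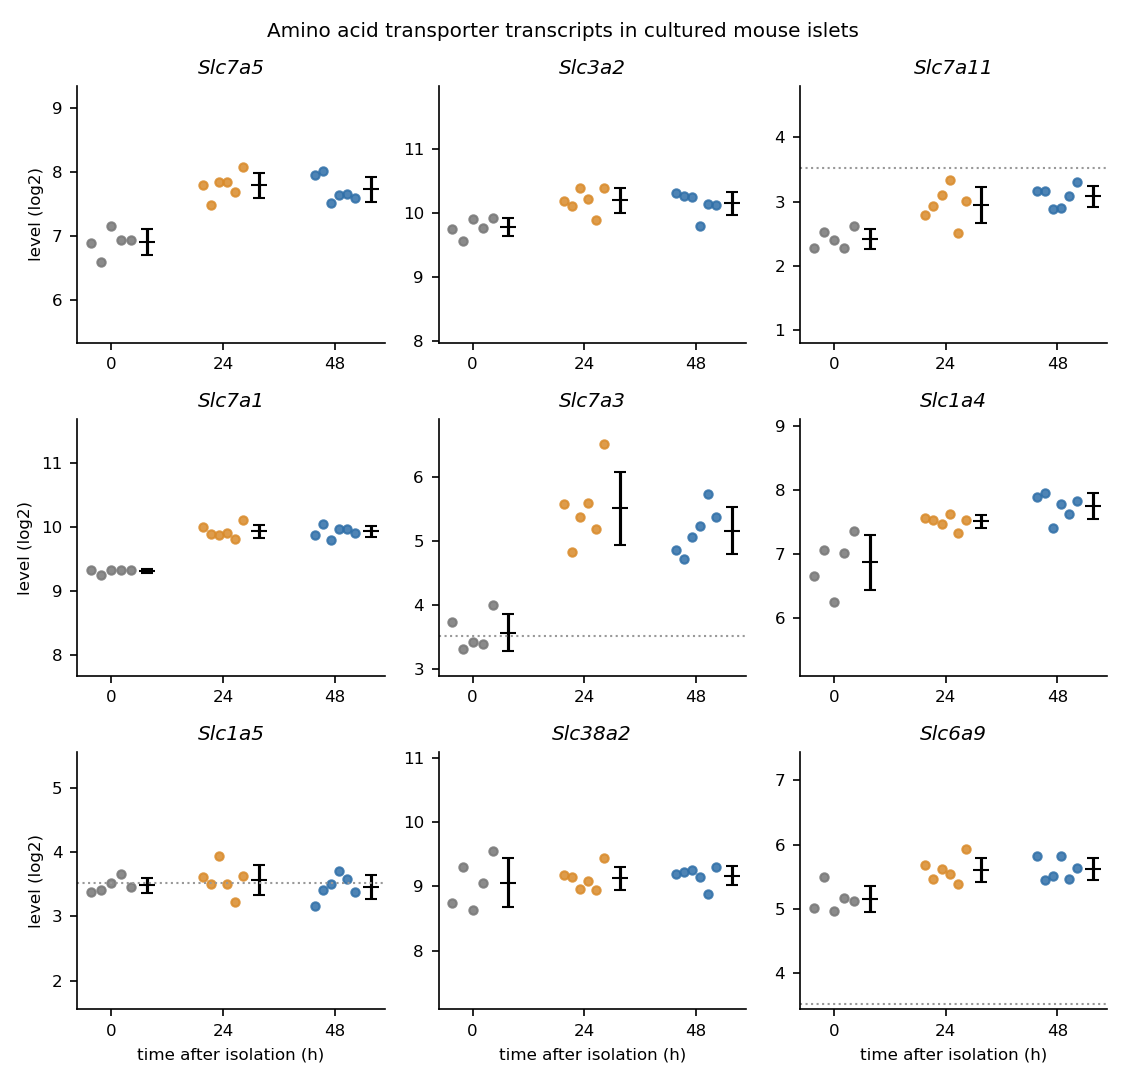
Log2 level of the representing probe set on each array against time after isolation, for 5 arrays at 0 h, 6 at 24 h and 6 at 48 h; black marks are the mean ± SD and the dotted line is the table's median of 3.52. Every panel spans 4 log2 units. Slc7a3 shows the widest gap between 0 h and the cultured arrays, Slc38a2 and Slc1a5 overlap throughout, and Slc7a11 lies under the dotted line on every array.

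The light chain gene Slc7a5 stood at 6.90, 6.60, 7.16, 6.93 and 6.94 on the 0 h arrays of batches 1, 2, 3, 4 and 6. At 24 h its arrays ran from 7.48 through a median of 7.82 to 8.08, and at 48 h from 7.51 through 7.65 to 8.01. Every cultured array lay above every 0 h array. The log2 difference was 0.88 ± 0.12 (SE) at 24 h, a 1.85-fold rise (limma adjusted p = 4.24e-05), and 0.82 ± 0.12 at 48 h (adjusted p = 0.000131). Among 48 h arrays, batches 1 and 2 were the highest (7.95 and 8.01), and the difference within a batch ran from 0.35 in batch 3 to 1.41 in batch 2.

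The heavy chain gene Slc3a2 was at 9.74, 9.56, 9.91, 9.77 and 9.91 at 0 h. It ran from 9.88 (median 10.20) to 10.39 at 24 h and from 9.80 (median 10.19) to 10.31 at 48 h, so that both times overlapped with 0 h. The overlap at 24 h came from batch 5, at 9.88, the batch with no 0 h array here. Within the 5 batches that had both times Slc3a2 was higher at 24 h in 5 of 5, by a narrow 0.44 to 0.54. The fit gave a rise of 0.42 ± 0.10 at 24 h (adjusted p = 0.0148). At 48 h it gave 0.37 ± 0.10 (adjusted p = 0.0330), with within-batch differences from 0.03 to 0.70; that call did not survive dropping a single array in 8 of 17 cases: 0 h replicates 1, 2 and 4 and 48 h replicates 1, 2, 3, 5 and 6. The adjusted p was then 0.0513 to 0.0900.

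Since both chains are needed for the dimer, the light chain was also set against the heavy chain on each array. The log2 value of Slc7a5 minus that of Slc3a2 averaged -2.87 ± 0.10 in fresh islets (SD, n = 5). It averaged -2.40 ± 0.16 after 24 h and -2.42 ± 0.21 after 48 h (SD, n = 6 each). Only its change was compared, as the probe sets differ. The Slc7a5 signal thus rose more than the Slc3a2 signal, by 0.47 at 24 h and by 0.45 at 48 h. The two-sided exact permutation p was 0.00433 for each (0.0130 adjusted over 6 tests), and 5 of 5 batches showed it at each time. Between 24 and 48 h the change was -0.02 (exact permutation p = 0.892). With 5 batches a paired exact test cannot go below 0.0625, the value it gave at both times. Probe sets of the same gene also differed in their change at 24 h, as for Slc7a1 (0.61 and 0.84) and Slc6a9 (0.45 and -0.07). These tests of signals therefore do not settle whether both transcripts changed unequally.

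Slc7a11, the cystine carrier, was measured weakly. The probe set that represents it was at 2.28, 2.53, 2.40, 2.27 and 2.63 at 0 h. It ran from 2.51 (median 2.97) to 3.34 at 24 h and from 2.89 (median 3.13) to 3.31 at 48 h. All 17 values are under the table's median of 3.52, so that no fold is given. On that scale, where a change in transcript level was not separable from background, the signal passed the test with a difference of 0.53 ± 0.12 at 24 h (adjusted p = 0.00845) and of 0.66 ± 0.12 at 48 h (adjusted p = 0.00146), in 5 of 5 batches at both times, and every 48 h array was above every 0 h array. The other probe set of Slc7a11, also under the median, differed by 0.09 ± 0.07 and -0.01 ± 0.07 and did not pass (adjusted p = 0.542 and 0.978). At 0 h that probe set had the higher mean (2.66 against 2.42). The representing one has the higher mean over all arrays only through its cultured values, so its rise is in part bound to that choice. For Slc7a11 minus Slc3a2, the change was 0.11 at 24 h and 0.30 at 48 h (exact permutation p = 0.394 and 0.0411; adjusted over 6 tests, 0.473 and 0.0823), and with the other probe set it had the opposite sign.

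Both carriers of cationic amino acids rose. Slc7a1, the widely expressed one, was at 9.34, 9.26, 9.32, 9.34 and 9.33 on the 0 h arrays, from 9.82 (median 9.90) to 10.11 at 24 h and from 9.81 (median 9.95) to 10.06 at 48 h. Neither cultured time overlapped with 0 h, and the spread at 0 h was the smallest of the 9 genes (SD 0.03). The rise was 0.61 ± 0.06 at 24 h and 0.62 ± 0.06 at 48 h, or 1.53-fold at each time (adjusted p = 2.79e-06 and 3.66e-06). A second probe set of Slc7a1 rose by 0.84 ± 0.15 and 0.82 ± 0.15. The remaining one, under 3 on every array, differed by 0.08 and 0.06 and did not pass.

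Slc7a3, which carries the same amino acids and is less widely expressed, showed the largest log2 difference of the 9. On the 0 h arrays it was at 3.74, 3.31, 3.42, 3.39 and 3.99, and only 2 of these 5 exceeded the table's median. At 24 h it ran from 4.82 (median 5.47) to 6.51 and at 48 h from 4.72 (median 5.14) to 5.72, with every cultured array above every 0 h array. The differences were 1.94 ± 0.23 and 1.59 ± 0.23 (adjusted p = 1.70e-05 and 0.000201). The 95% intervals of these log2 differences were 1.45 to 2.43 and 1.10 to 2.08. With 0 h values raised to the table's median where they were lower, the estimated rise was 3.60-fold at 24 h and 2.83-fold at 48 h. Batch 6 was the highest at both 0 and 24 h (3.99 and 6.51). The study's design text selects genes whose mean signal differs more than 4-fold from 0 h. The estimates from raised values lie under 4, while the ratio of mean linear signals was 4.04 at 24 h and 3.04 at 48 h. With 3 of the 5 arrays at 0 h under the mark, the data do not settle whether Slc7a3 exceeded 4-fold.

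The carriers of small neutral amino acids divided. Slc1a4 was at 6.66, 7.07, 6.25, 7.02 and 7.36 at 0 h, a wide spread with batch 3 lowest and batch 6 highest. It ran from 7.32 (median 7.53) to 7.62 at 24 h, overlapping with the batch 6 array of 0 h, and from 7.40 (median 7.80) to 7.95 at 48 h, above all of them. The rise was 0.63 ± 0.15 at 24 h (adjusted p = 0.00915) and 0.87 ± 0.15 at 48 h, or 1.83-fold (adjusted p = 0.000761). Its other probe sets gave 0.49 and 0.42 at 24 h (adjusted p = 0.0526 and 0.113) and rose by 0.93 and 0.77 at 48 h. The difference between 48 and 24 h was 0.24 ± 0.14 (adjusted p = 0.550).

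Slc1a5 stayed close to the table's median, from 3.38 to 3.66 at 0 h, 3.23 to 3.95 at 24 h and 3.17 to 3.71 at 48 h. Its differences were 0.09 ± 0.11 and -0.02 ± 0.11 (adjusted p = 0.751 and 0.942), and at this level a change was not separable from background. Its other probe set gave -0.15 and -0.01.

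Slc38a2, the sodium-coupled carrier, was at 8.74, 9.31, 8.63, 9.06 and 9.55 at 0 h, well above background. It ran from 8.94 (median 9.12) to 9.44 at 24 h and from 8.88 (median 9.21) to 9.30 at 48 h, inside the range at 0 h. The log2 difference was 0.07 ± 0.14 at 24 h (95% interval -0.22 to 0.36, adjusted p = 0.857) and 0.11 ± 0.14 at 48 h (-0.18 to 0.40, adjusted p = 0.732). These intervals leave out a rise as large as that of Slc7a1 or Slc6a9 (0.45 and 0.47). A change that lies inside them, in either direction, was not detectable. Within batches it was higher at 24 h in 3 of 5 and lower in 2. The other probe sets gave -0.11 and 0.07 at 24 h and 0.12 and 0.22 at 48 h, and did not pass.

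The glycine carrier gene Slc6a9 was at 5.01, 5.49, 4.96, 5.17 and 5.12 at 0 h, from 5.39 (median 5.59) to 5.93 at 24 h and from 5.45 (median 5.57) to 5.83 at 48 h. Batch 2, the highest at 0 h, was the source of the overlap and the batch without an increase, at -0.03 and -0.04. The rise was 0.45 ± 0.11 and 0.47 ± 0.11 (adjusted p = 0.0125 and 0.0110). Its other probe set did not pass and pointed down, by -0.07 ± 0.08 and -0.21 ± 0.08. When the probe sets were averaged, Slc6a9 stood at 0.19 and 0.13 and passed at neither time (adjusted p = 0.0699 and 0.250).

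**Figure D3:**
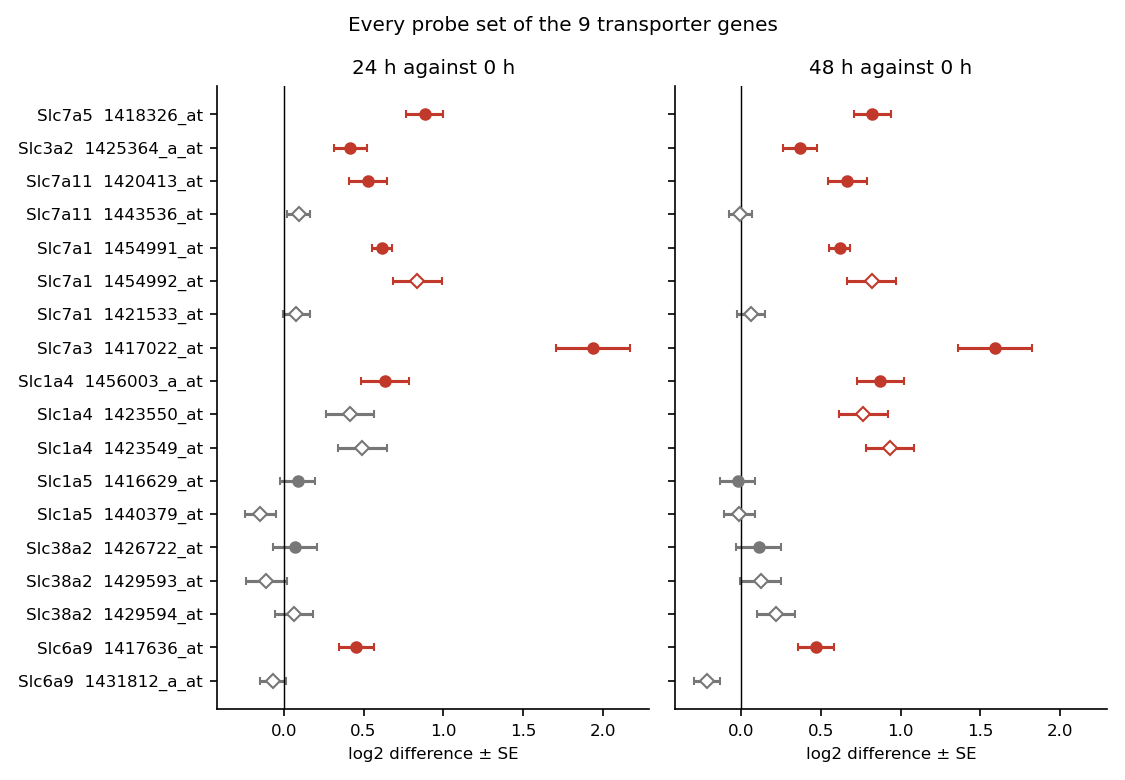
Log2 difference from 0 h ± SE for all 18 probe sets, at 24 h (left) and 48 h (right). Red marks passed at an adjusted p under 0.05 in limma and grey did not; circles represent the gene and open diamonds are its other probe sets. Slc1a4 and Slc7a1 have further probe sets that rose, whereas those of Slc7a11 and Slc6a9 did not pass.

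Each cultured portion was also set against the 0 h portion of the same islets. Of the 9 genes, 6 were higher in 5 of 5 batches at 24 h, and 6 at 48 h: Slc7a1, Slc7a3, Slc7a5, Slc7a11, Slc3a2 and Slc1a4. Among all genes 10.8% and 10.6% were higher in every batch. Slc6a9, which passed in limma, was higher in 4 of 5 batches at both times. Slc1a5, which did not pass, was higher in 4 of 5 at 24 h and in 1 of 5 at 48 h. Arrays did not overlap with 0 h for 3 of the 9 at 24 h and 5 at 48 h, against 3.92% and 5.17% of all genes that were higher without overlap. Slc7a11, under the background mark, and Slc1a4 were the pair that overlapped at 24 h and no longer did at 48 h. For both of these, and for Slc3a2, the overlap at 24 h rested on 1 array, that of batch 5 (2.51 for Slc7a11 and 7.32 for Slc1a4).

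**Figure D4:**
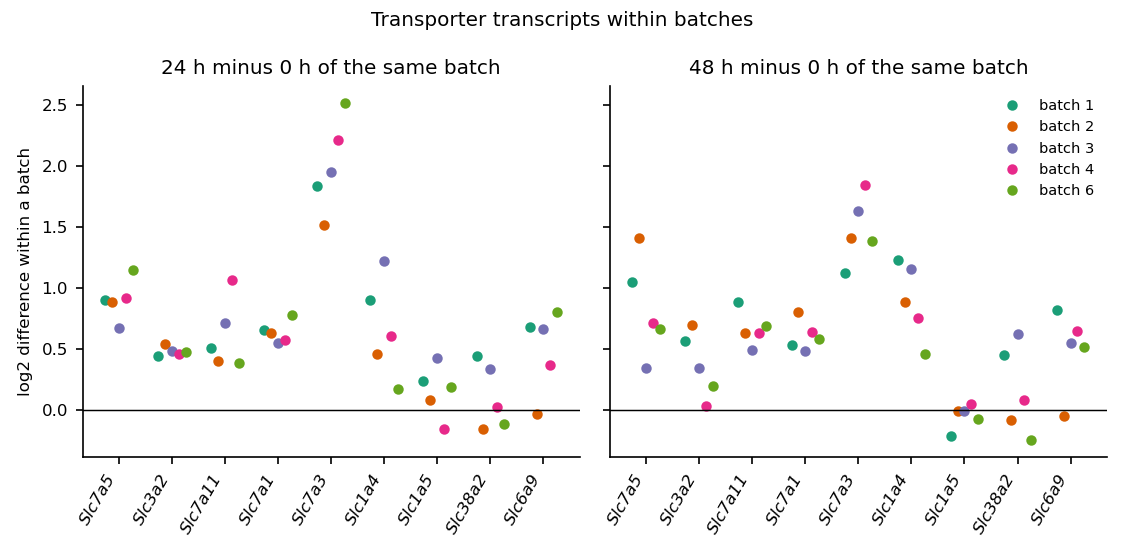
Log2 difference between a cultured portion and the 0 h portion of the same batch, for the 5 batches with a 0 h array, at 24 h (left) and 48 h (right). Each point is 1 batch. Slc3a2 at 24 h is the tightest of the risen genes (0.44 to 0.54), and Slc38a2, Slc1a5 and Slc6a9 lie on both sides of 0.

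The rise of these carriers was set beside the rest of the amino acid transporters. Of 43 further carrier genes of the SLC1, SLC3, SLC6, SLC7, SLC16, SLC36, SLC38 and SLC43 families, 41 were measured, 25 with a mean above the table's median. In limma 0 rose and 2 fell at 24 h, and 0 rose and 2 fell at 48 h (at an unadjusted p under 0.05, 0 were higher and 4 lower at 24 h, and 1 higher and 5 lower at 48 h). Of all 18193 genes, 5.44% rose and 6.66% fell at 24 h, and 6.45% rose and 5.27% fell at 48 h. Such shares of 41 are few genes, so these counts do not set the 41 apart from all genes. The share of all genes at the unadjusted threshold is not given here. Their median log2 difference was 0.01 at 24 h and -0.04 at 48 h. The 9 carriers were chosen with earlier results of these data known, so the contrast with the 41 is a description. Without 0 h replicate 3, 1 of the 41 rose at 48 h. Among 13 other alternatives to the main fit, 1 of the 41 rose in 1 of them at 24 h and in 1 at 48 h. At 24 h, 1 instead of 2 fell without 0 h replicate 2 or 4 or 24 h replicate 1, 2 or 6. With the acinar mean in the model 0 fell at 48 h.

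Of the 41, Slc16a10, an exporter of aromatic amino acids, fell by 0.67 at 24 h and by 0.38 at 48 h on the log2 scale (adjusted p = 3.81e-05 and 0.00871), with every cultured array under every 0 h array. Slc38a10 fell by 0.29 at 24 h (adjusted p = 0.0265), and Slc7a8, a light chain that also pairs with SLC3A2, fell by 0.36 at 48 h (adjusted p = 0.00895). Slc7a6 and Slc7a7, which encode further light chains of SLC3A2, did not pass. Slc7a6 differed by -0.16 and -0.08, and Slc7a7 by 0.13 and 0.50 (adjusted p = 0.478, 0.764, 0.813 and 0.173). The heavy chain of the renal carriers, Slc3a1, differed by -0.07 and 0.07 (adjusted p = 0.904 and 0.887).

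Genes of the amino acid response rose alongside. Of 20 measured, 14 rose and 1 fell at 24 h and 13 rose and 0 fell at 48 h, with medians of 0.89 and 0.86. Atf4 itself rose by 0.48 ± 0.12 and 0.43 ± 0.12 (adjusted p = 0.0166 and 0.0318). The list's largest differences were in Trib3 (3.56 at 24 h), Nupr1 (2.36), Chac1 (2.03) and Cebpb (1.57), and the member that fell was Cbs (-0.57), an enzyme of cysteine synthesis, named after its value was seen. Without 0 h replicate 1 or 2, 0 of the list fell. Asns, the asparagine synthetase gene whose promoter core is shown above, rose by 0.95 ± 0.06 at 24 h; it too was named after its value was seen.

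Enzymes that make some of the same amino acids moved with them. Of 9 measured genes for serine, glycine, proline and glutamine metabolism, 5 rose and 0 fell at 24 h and 6 and 0 at 48 h. Psat1 and Psph, successive enzymes of serine synthesis, rose by 2.22 ± 0.15 and 1.70 ± 0.09 at 24 h, Shmt2, which makes glycine from serine in mitochondria, by 1.46 ± 0.24, and the folate enzyme gene Mthfd2 by 1.34 ± 0.12.

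Beside the cystine carrier, 7 of 10 measured genes of glutathione synthesis and NRF2 targets rose at both 24 and 48 h and 0 fell, with medians of 0.87 and 0.64. They included Gclm, for a subunit of the enzyme that joins cysteine to glutamate (1.41 at 24 h), and Hmox1 (2.42), Srxn1 (1.32) and Txnrd1 (1.07). From 24 to 48 h 2 of the 10 fell, Hmox1 by 1.18 and Srxn1 by 0.56 on the log2 scale (adjusted p = 0.0107 and 0.0178), while 0 of the 9 carriers passed. The number of the 10 that fell from 24 to 48 h was 1 without 48 h replicate 2, 1 to 3 over all fits that dropped 1 array and 0 to 4 over the other alternatives, with 0 where the acinar mean was in the model. In that model 3 of the 10 rose at 48 h against 0 h.

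**Figure D5:**
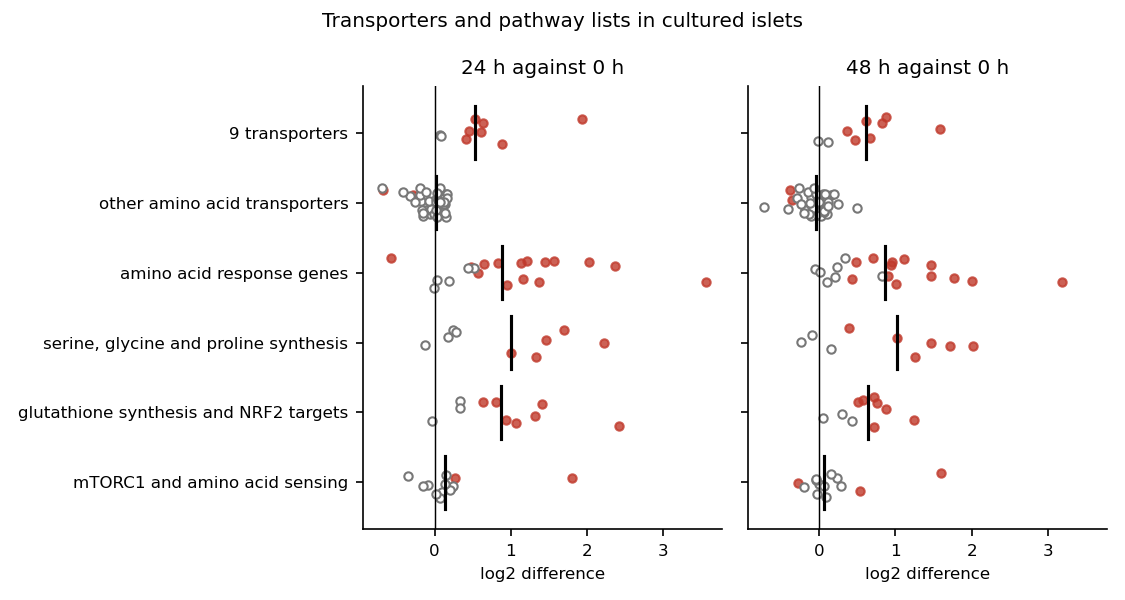
Log2 difference from 0 h of each gene in the 9 transporters and 5 other lists, at 24 h (left) and 48 h (right). Red points passed at an adjusted p under 0.05 and open grey points did not; black bars are list medians. The 41 other transporters centre on 0.01 and -0.04, and the 9 on 0.53 and 0.62.

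For Slc7a3, the member with the largest difference at 48 h, the 5 genes with the most similar log2 values over the 17 arrays, among 11915 above the table's median, were Aldh1l2, Me1, Pck2, Odc1 and Tuba4a (Pearson r = 0.955, 0.945, 0.942, 0.940 and 0.927). Aldh1l2 is a mitochondrial folate enzyme, Me1 an NADPH-forming malic enzyme, Pck2 the mitochondrial form of PEP carboxykinase, Odc1 the first enzyme of polyamine synthesis and Tuba4a a tubulin. After each time's mean was subtracted, r was lower, at 0.793, 0.705, 0.697, 0.713 and 0.637. These genes were picked as the highest of many, so the values are a description.

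Cell types in the preparation changed in the same samples, and in whole islets fewer cells of a type and less RNA per cell cannot be told apart. Of the beta cell markers, 11 of 11 measured had a mean above the table's median. So did 11916 of all 18193 genes and 14 of 18 acinar markers, so that this mark does not single out beta cells. Of the 11 beta cell markers, 8 fell at 24 h and 5 at 48 h. Their summed linear signal ran from 44262 to 45701 at 0 h, 35508 to 40188 at 24 h and 38379 to 40825 at 48 h. Of 16 endothelial markers 6 fell at 24 h and 10 at 48 h (2 and 1 rose), and their summed signal went from 1313 to 1677 at 0 h to 803 to 901 and 514 to 699. Of 16 macrophage markers 9 fell and 1 rose at 24 h, and 6 fell and 2 rose at 48 h, with summed signals of 1730 to 2937, 701 to 1033 and 698 to 971. Tie1 among endothelial markers, and Itgam and Mrc1 among macrophage markers, never exceeded the table's median.

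Of 18 acinar markers, from the enzyme-secreting exocrine cells, 2 fell at 24 h and 7 at 48 h, and their summed signal ran from 1307 to 7493 at 0 h, 537 to 3433 at 24 h and 744 to 1385 at 48 h, with Ptf1a under the median throughout. Of 14 mesenchymal markers 5 fell and 1 rose at 24 h, and 2 fell and 4 rose at 48 h, with sums of 785 to 1147, 407 to 469 and 582 to 973 and Lum under the median throughout. Of 8 duct markers 2 rose at 24 h and 1 at 48 h, with sums of 4200 to 5850, 5746 to 6870 and 5221 to 5986 and Cftr and Sox9 under the median. The 2 that rose at 24 h were Krt7 and Krt18, which with Krt8 and Epcam had the highest signals and make up most of the sum. Krt19 averaged 4.92, 4.00 and 3.76 at 0, 24 and 48 h and Muc1 4.37, 4.08 and 3.99, and neither passed. The sum therefore does not stand for all 8. Of 7 markers of other endocrine cells 4 and 1 fell, with sums of 10628 to 17399, 8227 to 13072 and 7261 to 13169 and Ghrl under the median. With the acinar mean added to the model, 7 of the 9 carriers rose at 24 h and 5 at 48 h, where Slc3a2 stood at 0.52 (adjusted p = 0.0525) and Slc6a9 at 0.56 (adjusted p = 0.0576). The part of the other cell types in these results was not tested.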

How the data were processed

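The deposited values are log2 signals, 1 per probe set and array; the submitters' processing notes name RMA, without a version. Base 2 is inferred from their range, 1.55 to 13.81. RMA makes the arrays' distributions alike, which hides a shift common to most transcripts, and it compresses differences of weak signals. No detection call was used.

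Of 45101 probe sets, 64 controls were left out. Symbols came from the platform annotation, updated through RefSeq by Entrez ID; 34945 probe sets had 1 symbol and 932 several, and no gene was named from the latter. One mean per time was fitted to all 17 arrays with limma 3.58.1 (lmFit, eBayes) in R 4.3.3, with Benjamini-Hochberg adjustment over 45037 probe sets for each of 3 comparisons; errors of differences are its standard errors. The code was tested on simulated data. Light and heavy chain were compared by exact permutation of array labels. Motifs were searched with Python 3.11.15. Other lists held 201 genes, of which 183 were measured (1 through an older symbol).

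Members and lists were chosen with earlier results of these data known. Named genes are the 9 members, and up to 4 passing genes of each pathway list by largest difference. They also include Atf4, Slc3a1, the light chain genes Slc7a6, Slc7a7 and Slc7a8, and the 5 genes most like the leading member.

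Portions of 1 batch come from the same pooled mice, per the study's design text, which pairs them. Over 16 pairs of the same batch, deviations from the time means correlated at a median of 0.00545 (0.1 was exceeded in 4). Over 80 pairs of different batches and times the median was -0.00978 (0.1 was exceeded in 19). The arrays thus show no clear sign of the pairing, which rests on the design text. Alternatives tried were a batch block (fixed, random), the batches with all times, weighted arrays, a trended prior, renormalization, a filter on level, other probe set choices, the compared arrays alone, an acinar covariate, and arrays left out. Pools are separate batches, but p-values measure only the spread between these arrays, and their number limits the precision.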

Additional observations from a re-analysis of the deposited data

Results flagged for a closer look

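Over the 54 groups of arrays (18 probe sets at 3 times), 2 held an array far from the others by Dixon's test, where chance flags about 1 group in 20. Slc7a1 on 0 h replicate 2 was at 9.26 against 9.32 to 9.34 on the other 0 h arrays. The gap is wide only because these agree closely. Slc38a2 on 48 h replicate 5 was at 8.88 against 9.15 to 9.30 on the other 48 h arrays.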

How the results depend on the processing

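Of the 9 carriers, 7, 7 and 0 passed in the comparisons of 24 h with 0 h, 48 h with 0 h and 48 h with 24 h. With the batch as a replicate block the counts were again 7, 7 and 0, and over the other 12 alternatives 6 to 7, 5 to 7 and 0. Leaving out 1 array gave 7 at 24 h and 6 to 7 at 48 h. The gene lost without an array was Slc3a2 at 48 h, which also stood at 0.31 after repeated quantile normalization (adjusted p = 0.0657). A filter on level removed Slc7a11 and Slc1a5 before the fit. Median centring kept every call of the 9. For Slc7a11 minus Slc3a2, the other Slc7a11 probe set turned the change to -0.32 at 24 h and -0.37 at 48 h (exact permutation p adjusted, 0.0487 and 0.0455); both probe sets lie under the table's median. Leaving out 1 array, the change was 0.25 to 0.38 at 48 h against 0 h and 0.14 to 0.26 between 24 and 48 h, past the threshold without 0 h replicate 2 (0.38) and without 24 h replicate 4 (0.26) respectively. For Slc7a5 minus Slc3a2, pairing by batch gave 0.43 and 0.47, where the test cannot pass with 5 batches, and leaving out 1 array gave 0.43 to 0.51 and 0.40 to 0.52. The cause of these shifts was not tested. Signals near background limit Slc7a11, Slc1a5 and the 0 h level of Slc7a3.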

Other observations

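Of 13 measured genes of mTORC1 signalling and amino acid sensing, a pathway that reads amino acid supply, 2 rose and 0 fell at 24 h and 2 rose and 1 fell at 48 h. Eif4ebp1, which encodes an inhibitor of cap-dependent translation that mTORC1 phosphorylates, rose by 1.81 ± 0.14 at 24 h and 1.60 ± 0.14 at 48 h, with every cultured array above every 0 h array at both times. Castor2, a homologue of the arginine sensor, rose by 0.26 ± 0.08 and 0.54 ± 0.08, and Lamtor1, which anchors the complex at the lysosome, fell by 0.28 at 48 h. The count that rose at 24 h was 1 in 7 of 13 alternatives, the batch as a block among them, and 1 to 2 over the fits that dropped 1 array; the count that fell at 48 h was 0 in 7 of 13 and 0 to 1. The call of Castor2 at 24 h was close to the threshold (limma adjusted p = 0.0439).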
